A study of Mus musculus with 4 samples.

Results

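The genes described here are the interleukin-1 family and its receptors, together with Il23a, in liver RNA-seq libraries of mice fed conjugated linoleic acid (CLA) with or without the PPARα antagonist GW6471. They were taken by symbol from the expression table, which holds 15500 genes. Membership needs only the symbol, but the set was selected on earlier FPKM results of these same libraries, so their differences are given as descriptions. Of the 9 named genes, 8 were measured: Il1rn, Il1a, Il1r1, Il1rap, Il1rl1, Il18, Il33 and Il23a. Il1b was not analysed here. The mice were male Kunming animals, 5 weeks old at purchase and on chow for 1 week before the diets. The Vehicle group received linoleic acid at 1.5% (w/w) in the chow, and the CLA group received CLA at 1.5% (w/w) instead. The GW6471 group received the linoleic acid diet with daily intraperitoneal GW6471 at 20 mg/kg, and the CLA+GW6471 group received the CLA diet with the same injections. The diets lasted 28 days, each group had 6 mice, and the livers were sampled at zeitgeber time 8 according to the methods for the diet groups. The methods do not describe the GW6471 groups for RNA-seq, so those conditions rest on the sample labels.

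The interleukin-1 family works through paired signals and brakes. IL-1α and IL-1β bind the receptor IL1R1, which recruits the accessory protein IL1RAP and signals through MYD88 and NF-kB. The product of Il1rn, the IL-1 receptor antagonist, occupies IL1R1 without signalling. IL-18 and IL-33 use related receptors, and IL-33 is held in the nucleus of epithelial and endothelial cells until they are damaged. Il23a encodes the p19 subunit of IL-23, which is secreted only as a pair with the p40 subunit from Il12b. In liver, hepatocytes make the receptor antagonist as an acute-phase protein and resident macrophages are a main source of IL-1.

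In these libraries, Il1rn and Il23a were high in Vehicle and CLA+GW6471 and low in CLA and GW6471, and Il33 had the reverse order. Il1rn had the lowest ratio of CLA to Vehicle of all 10355 genes averaging 1 FPKM or more. FPKM, the unit the authors deposited, is a fragment count divided by transcript length and by the number of mapped fragments. The receptor genes Il1r1 and Il1rap and the ligand gene Il18 stayed within 2-fold in every comparison, and Il1a and Il1rl1 were at or near 0 in all libraries. Each condition has 1 library, so there is no replicate error, no difference was tested, and every ratio describes these libraries. The sources used here do not say if a library holds the RNA of 1 mouse or of several.

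The libraries resembled each other in an order that does not follow the shared treatments. Over the 10355 genes, Vehicle and CLA+GW6471 were the nearest pair, with a median absolute log2 difference of 0.093 and 31 genes apart by 2-fold or more. CLA and GW6471 had 39 such genes, Vehicle and CLA had 262, and CLA and CLA+GW6471 had 407. An exchange of library labels and an action of the combined treatment cannot be told apart with 1 library per condition, and all values are given as labelled. FPKM summed to between 497015 and 522893 per library. The depth, estimated from the steps between low FPKM values, was 18771966 to 19262919 reads and is approximate. Of the 4 hepatocyte markers, Alb stood at 620 to 1322 FPKM, a level that was not compared with other liver data. Apoa1 stood at 0.37 to 2.15 FPKM with its highest value in CLA. Ttr was at or under 0.04 and Cyp2e1 at or under 0.10. The low levels of Apoa1, Ttr and Cyp2e1 go against the tissue label. Of 23 immune cell markers, 12 were measured, and 11 of these were under 1 FPKM in every library.

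Sequence is shown for the start regions of Il1rn and Il33, the members of opposite pattern for which the RefSeq promoter table (build GRCm38.p6) has windows. It covers 8 of the 9 named genes, in 13 windows of 250 bases before and 50 bases after a start, and Il23a has no entry. Il1rn has several starts, used for the secreted and the intracellular forms, and the 160 bases before 2 of its starts are printed, the upstream one with the 6 bases after the start that complete a match. Capitals mark matches to the AP-1 letters TGANTCA or the NF-kB letters, which are GGG, any 3 bases and then TTCC.
Il1rn upstream start, chr2:24336700-24336865, plus strand: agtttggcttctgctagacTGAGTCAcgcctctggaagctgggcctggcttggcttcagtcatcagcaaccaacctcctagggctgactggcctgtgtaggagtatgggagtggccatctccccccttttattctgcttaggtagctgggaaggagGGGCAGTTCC
Il1rn downstream start, chr2:24345131-24345290, plus strand: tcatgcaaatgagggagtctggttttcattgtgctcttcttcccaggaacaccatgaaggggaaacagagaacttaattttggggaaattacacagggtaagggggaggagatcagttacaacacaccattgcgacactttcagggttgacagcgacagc
Il33 upstream start, chr19:29924953-29925112, plus strand: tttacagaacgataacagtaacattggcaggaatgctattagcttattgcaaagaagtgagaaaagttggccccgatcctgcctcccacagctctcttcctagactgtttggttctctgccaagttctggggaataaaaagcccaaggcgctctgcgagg
Il33 downstream start, chr19:29945630-29945789, plus strand: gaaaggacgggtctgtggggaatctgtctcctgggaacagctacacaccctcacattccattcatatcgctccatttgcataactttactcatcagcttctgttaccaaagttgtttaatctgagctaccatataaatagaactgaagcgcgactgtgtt

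The upstream Il1rn window held the AP-1 letters beginning 141 bases before the start and the NF-kB letters beginning 4 bases before it. A further NF-kB match in Il1rn, GGGTTTTTCC, began at base 30 after the downstream start. The same site lay 51 bases before another listed start. Neither Il33 window had a match to these letters in its whole length. Both strands were searched, and the AP-1 letters overlap neither of the other motifs in these windows. Of all 32851 windows, 7.81% held the AP-1 letters and 5.56% the NF-kB letters, and the narrower form GGG, any 2 bases and then TTTCC, which is contained in the latter, was in 1.63%. The other matches in members were the AP-1 letters beginning 12 bases before the Il1a start and GGGGCATTCC, on the opposite strand, beginning 232 bases before an Il1r1 start. The direct repeat of AGGTCA with 1 base between the copies is a form of the element to which PPARα binds with RXR. Its exact letters were in 0.0396% of all windows and in 0 of the 13 windows of members. At that share 13 windows would seldom hold it, so nothing is read from the 0. A match is only a run of letters, and FPKM is given per gene, so the starts in use are not known.

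Il1rn encodes the receptor antagonist and lies on the plus strand of chromosome 2 in mm9, from 24192373 to 24207014. It stood at 34.25 FPKM for Vehicle, 6.58 for CLA, 10.56 for GW6471 and 36.73 for CLA+GW6471. The Vehicle and CLA+GW6471 values were thus close together, and the CLA and GW6471 values were far below them. Il1rn was 5.21-fold lower in CLA than in Vehicle (95% counting interval 4.60 to 5.90). Counting intervals are exact Clopper-Pearson intervals of reads estimated from the depth and the longest coding transcript, and they cover counting error only. With GW6471 the CLA diet went with the opposite difference, since Il1rn was 3.48-fold higher in CLA+GW6471 than in GW6471 (3.15 to 3.85). GW6471 alone was 3.24-fold lower than Vehicle (2.93 to 3.59), and CLA+GW6471 was 5.58-fold higher than CLA (4.94 to 6.32). Among the 10355 genes, Il1rn was number 1 from the lowest in CLA against Vehicle and number 2 from the lowest in GW6471 against Vehicle. It was number 2 from the highest in CLA+GW6471 against CLA and number 3 in CLA+GW6471 against GW6471. Its highest library was 5.51 times its lowest after 0.1 was added to both, a range with rank 17, and the median gene had 1.27. At the ends of the order, CLA+GW6471 exceeded Vehicle by a ratio of 1.07, with an interval of 1.001 to 1.15 that only just leaves out 1. GW6471 exceeded CLA by 1.60 (1.39 to 1.86).

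**Figure D1:**
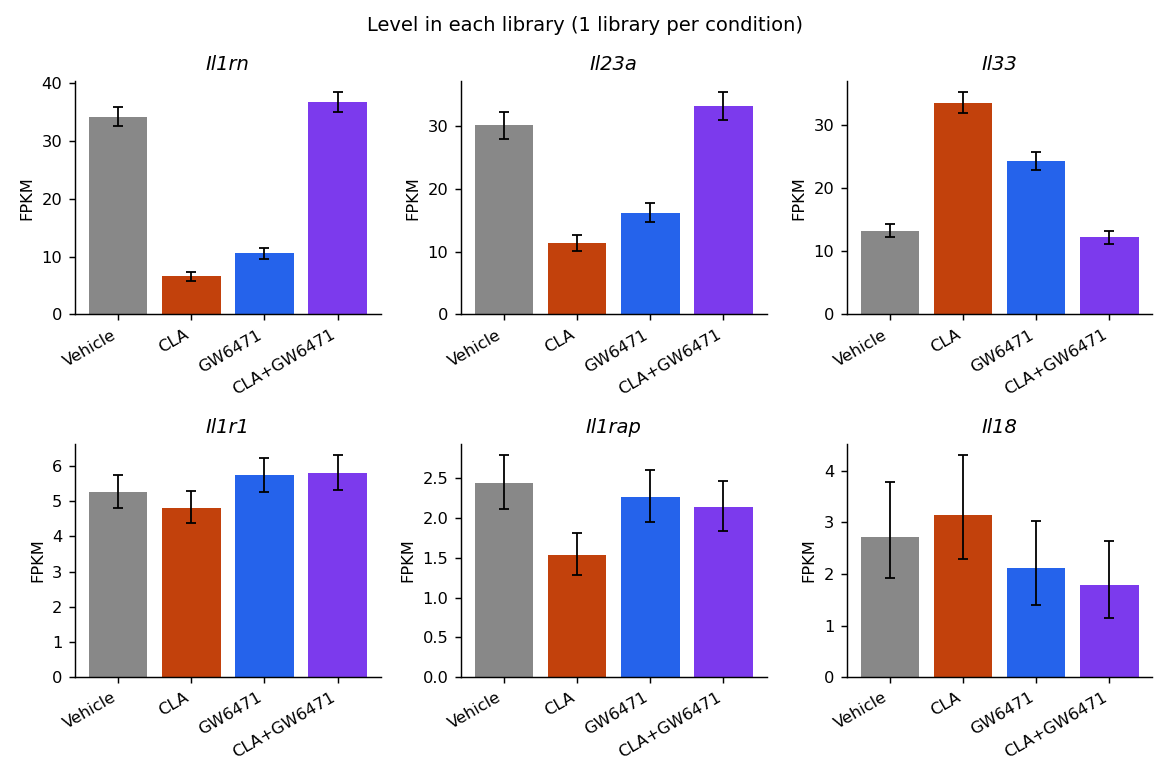
FPKM (vertical axes, each starting at 0) of the 6 members averaging 1 FPKM or more in the 4 libraries, 1 bar per library. Bars show deposited values and error bars the 95% exact Poisson interval of the estimated reads, so they cover counting error only. Il1rn and Il23a are tall in Vehicle and CLA+GW6471, and Il33 is tall in CLA and GW6471.

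Il23a, the gene of the IL-23 p19 subunit, lies on the minus strand of chromosome 10, from 127733196 to 127735140, and followed the order of Il1rn with smaller differences. Its level was 30.07 FPKM for Vehicle, 11.32 for CLA, 16.15 for GW6471 and 33.09 for CLA+GW6471. The lowest library was again CLA, followed by GW6471. Il23a was 2.66-fold lower in CLA than in Vehicle (95% counting interval 2.32 to 3.05) and 2.05-fold higher in CLA+GW6471 than in GW6471 (1.82 to 2.31). Between GW6471 and Vehicle it was 1.86-fold lower (1.65 to 2.10), and between CLA+GW6471 and CLA it was 2.92-fold higher (2.55 to 3.35). The 2 highest libraries, CLA+GW6471 and Vehicle, had a ratio of 1.10 with an interval of 0.997 to 1.21, which holds 1. Il12b, the gene of its partner subunit, was not analysed here.

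Il33 encodes an alarmin released from damaged cells and lies on the plus strand of chromosome 19, from 29999604 to 30035194. Its values were 13.25 FPKM for Vehicle, 33.54 for CLA, 24.25 for GW6471 and 12.2 for CLA+GW6471. CLA and GW6471 were therefore the high libraries, in the reverse of the order of Il1rn and Il23a. Il33 was 2.53-fold higher in CLA than in Vehicle (95% counting interval 2.31 to 2.78) and 1.99-fold lower in CLA+GW6471 than in GW6471 (1.80 to 2.20). GW6471 exceeded Vehicle 1.83-fold (1.66 to 2.02), and CLA+GW6471 was 2.75-fold lower than CLA (2.50 to 3.02). Vehicle and CLA+GW6471 had a ratio of CLA+GW6471 to Vehicle of 0.921 (0.822 to 1.03), which holds 1. Il1rl1 (chromosome 1, 40486415 to 40522260, plus strand) encodes ST2, the receptor chain that binds IL-33, and it was listed at 0.01 FPKM for Vehicle, 0 for CLA, 0.02 for GW6471 and 0 for CLA+GW6471. A count of 3 reads would be worth about 0.030 FPKM for this gene in Vehicle, so no level or difference of Il1rl1 was detectable at this depth.

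Il1a, which encodes the IL-1α ligand (chromosome 2, 129125346 to 129135708, minus strand, mm9), was close to the limit in the same way. It was listed at 0.03 FPKM for Vehicle, 0.05 for CLA, 0 for GW6471 and 0.08 for CLA+GW6471, or 0 to 3 estimated reads. With 3 reads worth 0.081 FPKM in Vehicle, no ratio is given. Il18 (chromosome 9, 50383378 to 50389942, plus strand), the gene of an IL-1 family ligand that inflammasome caspases activate, had 2.71 FPKM for Vehicle, 3.15 for CLA, 2.12 for GW6471 and 1.79 for CLA+GW6471. It was 1.16-fold higher in CLA than in Vehicle with a counting interval of 0.729 to 1.87, which holds 1. The only comparison of Il18 whose interval left out 1 was CLA+GW6471 against CLA, where it was 1.76-fold lower (1.06 to 3.10), on 24 and 42 estimated reads.

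The receptor genes varied least. Il1r1 (chromosome 1, 40281925 to 40373043, plus strand), which encodes the signalling receptor for IL-1, stood at 5.26 FPKM for Vehicle, 4.82 for CLA, 5.73 for GW6471 and 5.81 for CLA+GW6471. These levels span a ratio of 1.21, and the ratio of CLA to Vehicle was 0.916 (95% counting interval 0.802 to 1.04). The intervals of 2 Il1r1 ratios left out 1, both with CLA as the lower library: 1.21 for CLA+GW6471 to CLA (1.06 to 1.37) and 1.19 for GW6471 to CLA (1.05 to 1.35). Il1rap (chromosome 16, 26581790 to 26730203, plus strand), the gene of the shared accessory protein, had 2.44 FPKM for Vehicle, 1.53 for CLA, 2.26 for GW6471 and 2.14 for CLA+GW6471, so that CLA alone was low. It was 1.59-fold lower in CLA than in Vehicle (1.27 to 2.0) and 1.40-fold higher in CLA+GW6471 than in CLA (1.11 to 1.76). The second of these intervals held 1 when the shortest coding transcript was used for the reads. In CLA+GW6471 against GW6471 the Il1rap ratio was 0.947 (0.769 to 1.16).

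**Figure D2:**
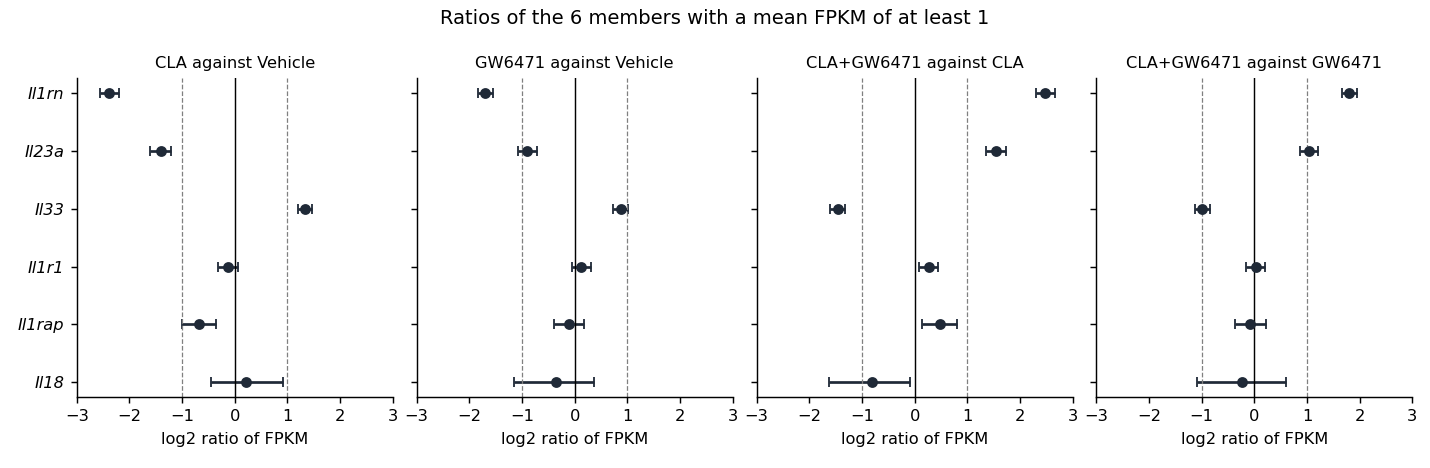
Log2 ratio of FPKM (horizontal axes) of the 6 members in the 4 comparisons, 1 panel each. Points are ratios without a pseudocount, bars are 95% counting intervals, and dashed lines mark 2-fold. Il1rn lies beyond 2-fold in all 4 panels, on the low side against Vehicle and on the high side for CLA+GW6471.

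Counts of members are given beside the share of all genes past the same limit, 2-fold on log2(FPKM + 0.1) among genes averaging 1 FPKM or more. This scale understates the change of low genes. The members were chosen with earlier results of these libraries known, so nothing is read from the counts. In CLA against Vehicle, 2 of the 6 members that passed the level limit were lower (Il1rn and Il23a), where 0.744% of all genes were, and 1 was higher (Il33), where 1.79% of all genes were. In GW6471 against Vehicle, 1 member was lower (Il1rn), against 0.309% of all genes, and 0 were higher, against 0.56%. In CLA+GW6471 against CLA, Il1rn and Il23a were higher, against 1.27% of all genes, and Il33 was lower, against 2.67%. In CLA+GW6471 against GW6471, Il1rn and Il23a were higher, against 0.357%, and 0 members were lower, against 0.802%, with Il33 just inside the limit at a log2 ratio of -0.99. That limit divides near-equal values here, since the log2 ratio of Il23a was 1.03. The median log2 ratio of the 6 members was -0.38 in CLA against Vehicle and -0.028 in CLA+GW6471 against GW6471, beside -0.0071 and 0.0041 over all genes tested.

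The ratios of CLA without and with GW6471 share no library and can be set side by side. For Il1rn the log2 ratio was -2.36 without and 1.79 with GW6471, for Il23a -1.40 and 1.03, and for Il33 1.33 and -0.99. Il1rap had -0.64 and -0.075, Il1r1 -0.12 and 0.020, and Il18 0.21 and -0.23. Il1rn and Il23a were 2 of the 18 genes, 0.174% of the 10355, that were at least 2-fold lower with CLA alone and at least 2-fold higher with CLA on top of GW6471. The reverse combination held for 66 genes, or 0.637%, and for 0 members. These counts of members depend on the setting: with libraries scaled to a common FPKM sum, the log2 ratio in CLA+GW6471 against GW6471 was 0.96 for Il23a, which then left the first class, and -1.05 for Il33, which then entered the reverse one. With a pseudocount of 1 it was 0.99 for Il23a, which again is short of the limit. The difference between the 2 ratios of a gene was not tested, as each rests on 1 pair of libraries.

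**Figure D3:**
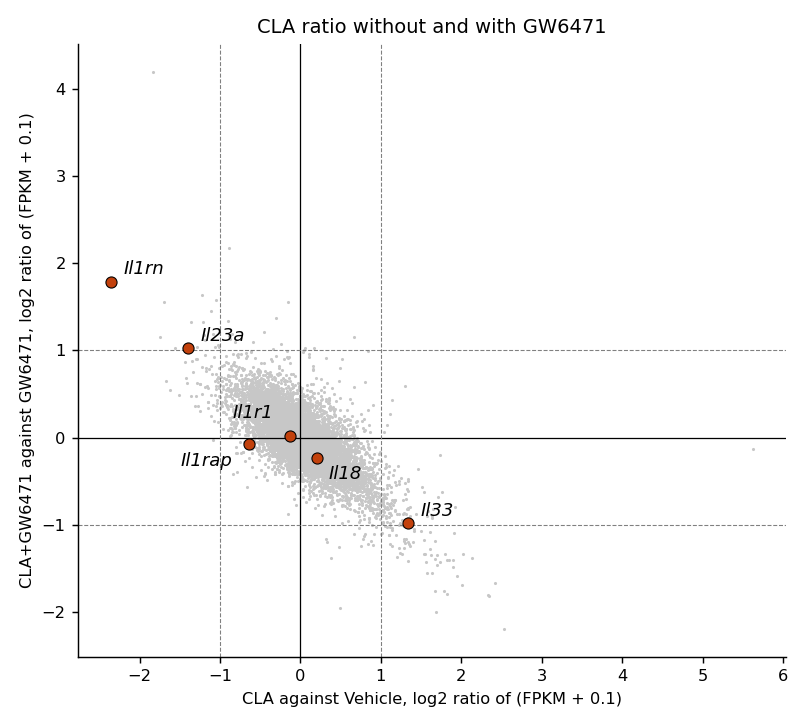
Log2 ratio of (FPKM + 0.1) of CLA to Vehicle (horizontal axis) and of CLA+GW6471 to GW6471 (vertical axis) for the genes with a symbol and an average of 1 FPKM or more (grey points), with the 6 members in orange and dashed lines at 2-fold. Il1rn, at -2.36 and 1.79, and Il23a, at -1.40 and 1.03, lie at the upper left, and Il33, at 1.33 and -0.99, at the lower right of a cloud that slopes the same way.

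The other genes of the pathway were taken from lists. Among IL-1 family receptors and decoys outside the members, 5 of 8 were measured and 2 averaged 1 FPKM or more. Il18bp, which encodes a secreted protein that traps IL-18, had 1.73 FPKM for Vehicle, 0.68 for CLA, 1.12 for GW6471 and 2.04 for CLA+GW6471. Its order of libraries was that of Il1rn, and it was 2.54-fold lower in CLA than in Vehicle (95% counting interval 1.42 to 4.59). Sigirr, a gene for an inhibitory receptor of the family, ranged from 51.63 to 64.24 FPKM. Il1r2, the decoy receptor for IL-1, was at 0.04 FPKM or less. Of the other ligands, 1 of 5 was measured: Il1f9 (IL-36γ), at 0.83 to 1.09 FPKM.

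All 23 listed genes of IL-1 receptor signalling were measured, and 0 were past 2-fold in any of the 4 comparisons, a limit that 0.309% to 2.67% of all genes passed in a given direction and comparison. At such shares a list of this size could hold few or no genes past it, and nothing is read from the 0. In CLA against Vehicle 17 of them lay below 0 and 6 above, with a median log2 ratio of -0.17 beside -0.0071 over all genes. In CLA+GW6471 against GW6471 15 lay above 0 and 8 below, with a median of 0.071 beside 0.0041. The widest ranges were those of Irak2, a kinase of the receptor complex, from 17.03 FPKM in CLA to 29.11 in CLA+GW6471, of Tollip, an adaptor that restrains the pathway, from 35.71 to 54.14 in the same libraries, and of Tnfaip3, which encodes the NF-kB inhibitor A20, from 13.17 in CLA to 20.16 in Vehicle. The lowest library was CLA for these genes.

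Among 9 processing and inflammasome genes averaging 1 FPKM or more, 8 were within 2-fold in every comparison. The exception was lower in CLA+GW6471 than in CLA, as were 2.67% of all genes, and was Casp1, the gene of the protease that cleaves pro-IL-1β and pro-IL-18. Casp1 had 3.66 FPKM for Vehicle, 5.86 for CLA, 3.91 for GW6471 and 2.15 for CLA+GW6471, and it was 2.73-fold lower in CLA+GW6471 than in CLA (95% counting interval 2.03 to 3.72). CLA was thus its highest library and CLA+GW6471 its lowest. Gsdmd, which encodes the pore through which IL-1β leaves cells, had the same order, from 17.09 to 26.74 FPKM. Nlrp1a, an inflammasome sensor gene, ranged from 3.96 to 5.85 FPKM, and the sensor gene Nlrp3 was at 0.08 FPKM or less.

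Of 15 genes of the IL-23 and IL-12 axis, 10 were measured and 5 averaged 1 FPKM or more, with 0 past 2-fold in any comparison. The limit was passed by 0.309% to 2.67% of all genes in a given direction and comparison, so nothing is read from this 0 either. Il17ra, a receptor gene for IL-17, had 15.67 FPKM for Vehicle, 9.27 for CLA, 13.65 for GW6471 and 15.99 for CLA+GW6471. Jak2, the kinase gene of IL-23 receptor signalling, had 53.21, 73.34, 68.65 and 48.88 FPKM in the same order of libraries, with CLA highest. Tyk2, the kinase gene that works beside Jak2 in this signalling, ranged from 3.79 FPKM in CLA+GW6471 to 5.32 in CLA. Il12rb1, a chain of the IL-23 receptor, stayed at 0.40 to 0.53 FPKM.

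Of genes known to respond to IL-1, 9 averaged 1 FPKM or more. In CLA against Vehicle, 1 was at least 2-fold higher (Ccl20), beside 1.79% of all genes, and 1 was lower (Ccl2), beside 0.744%. In CLA+GW6471 against CLA, 2 were higher (Cxcl2 and Ccl2), beside 1.27%, and 1 was lower (Ccl20), beside 2.67%. Ccl20 was also past the limit on the high side in GW6471 against Vehicle, beside 0.56% of all genes. It was past it on the low side in CLA+GW6471 against GW6471, beside 0.802%. Ccl20, a chemokine gene, stood at 9.57 FPKM for Vehicle, 30.65 for CLA, 25.17 for GW6471 and 7.36 for CLA+GW6471, the order of Il33, and it was 3.20-fold higher in CLA than in Vehicle (95% counting interval 2.78 to 3.70). Ccl2, the gene of a monocyte chemokine, had 35.52, 17.59, 20.91 and 36.46 FPKM in the same libraries, the order of Il1rn, and was 2.02-fold lower in CLA than in Vehicle (1.74 to 2.34). The neutrophil chemokine gene Cxcl2 had 4.94, 2.61, 4.67 and 5.87 FPKM, with CLA alone low. The list's median log2 ratio in CLA against Vehicle was 0.040, beside -0.0071 over all genes. The acute-phase gene Hp stood at 1.01 to 1.75 FPKM and Fga at 0.02 to 0.11.

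**Figure D4:**
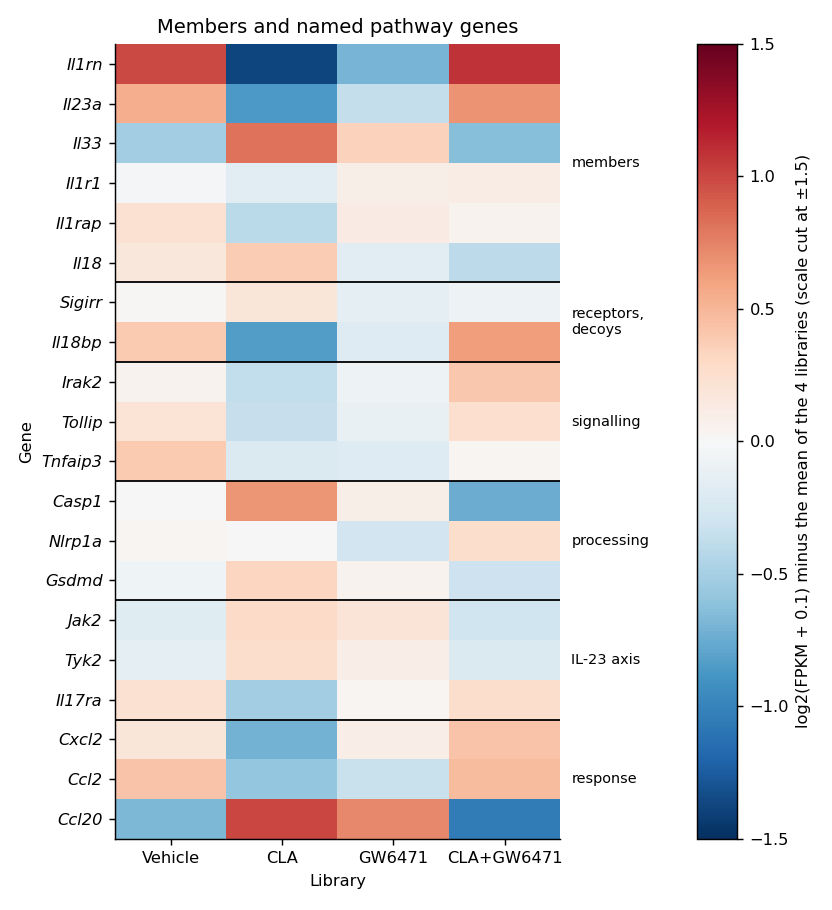
Log2(FPKM + 0.1) minus the mean of the 4 libraries, by colour, for the 6 members and for the pathway genes of widest range (rows) in each library (columns). Red is above and blue below the gene's own mean, and the colour scale ends at 1.5. Il1rn, Il23a, Il18bp and Ccl2 are red in Vehicle and CLA+GW6471, and Il33 and Ccl20 are red in CLA and GW6471.

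The genes of most similar pattern were sought over the 4 libraries among 499 genes averaging 1 FPKM or more and a highest library at least 2-fold above the lowest. Likeness was the Euclidean distance between log2(FPKM + 0.1) profiles, each centred on its own mean, and a smaller distance means a closer pattern. Nearest to Il1rn were Traf1, an adaptor of TNF receptor signalling (distance 0.50), Nbl1, which encodes a BMP antagonist (0.78), and Cidec, which encodes a lipid droplet protein (0.81). Traf1 had 3.8 FPKM for Vehicle, 1.1 for CLA, 1.62 for GW6471 and 4.94 for CLA+GW6471. Nearest to Il23a were Rab30 (0.10), Cnppd1 (0.13) and Slc43a3 (0.13), and nearest to Il33 were Hs3st6 (0.041), Idh1 (0.080) and Hdac11 (0.098). Idh1, the gene of cytosolic isocitrate dehydrogenase, had 43.75, 104.75, 79.63 and 41.26 FPKM in Vehicle, CLA, GW6471 and CLA+GW6471. Il1rn thus had no neighbour as close as those of Il23a and Il33, and its range was the widest of these genes.

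**Figure D5:**
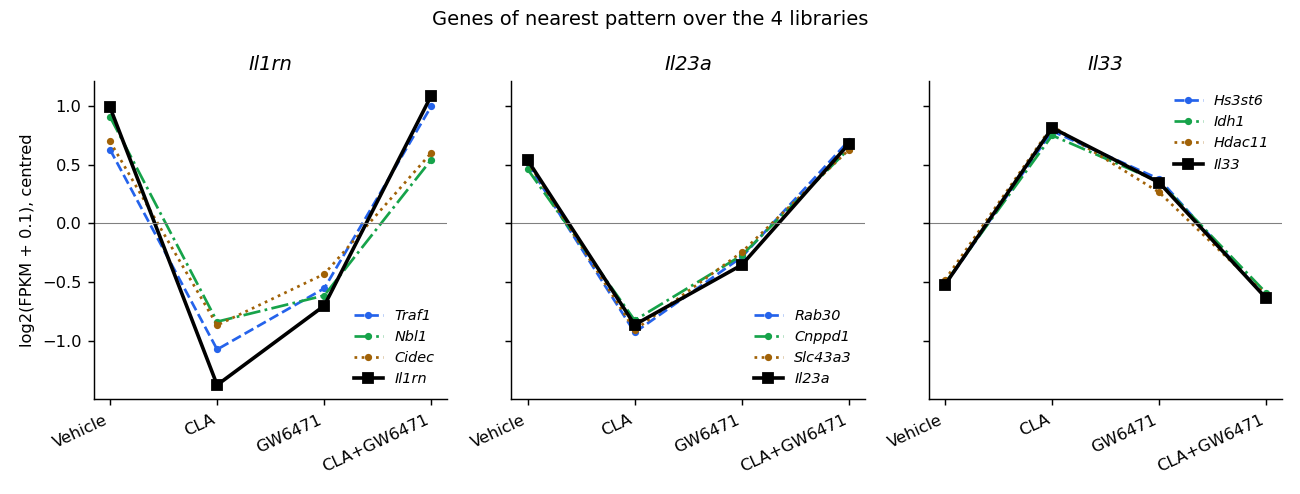
Log2(FPKM + 0.1) centred on each gene's mean (vertical axis) in the 4 libraries (horizontal axis) for Il1rn, Il23a and Il33 (black squares) and their 3 nearest genes (coloured lines). The lines of Il23a and Il33 nearly cover those of their nearest genes, at distances of 0.041 to 0.13, and Il1rn spans more than its nearest genes, at distances of 0.50 to 0.81.

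Genes next to Il1rn and Il23a were looked up in the mm9 annotation. Within 100 kb of the 5′ end of Il23a, 8 protein-coding genes averaged 1 FPKM or more, and 0 were past 2-fold in any of the 4 comparisons. With 0.309% to 2.67% of all genes past that limit in a given direction and comparison, nothing is read from the 0. Their log2 ratios ran from -0.48 to 0.69 in CLA against Vehicle and from -0.30 to 0.52 in CLA+GW6471 against GW6471. Stat2, 27.5 kb away and the gene of that window with the highest ratio in CLA against Vehicle, had 2.85 FPKM for Vehicle, 4.67 for CLA, 3.76 for GW6471 and 3.03 for CLA+GW6471, so that its high libraries were the low ones of Il23a. Timeless and Spryd4, in the same window, had the low and high libraries of Il23a. Timeless stood at 4.61 FPKM for Vehicle, 3.52 for CLA, 3.47 for GW6471 and 4.84 for CLA+GW6471, and Spryd4 at 17.16, 12.3, 11.16 and 16.06 FPKM in the same libraries. Neighbours of Il23a thus did not share 1 order of libraries. Near Il1rn, Psd4 was the 1 gene compared, 30.7 kb away, with 6.04, 3.38, 3.76 and 5.8 FPKM in Vehicle, CLA, GW6471 and CLA+GW6471. Psd4 thus had its low values in the same libraries as Il1rn, with a log2 ratio of -0.82 in CLA against Vehicle.

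Markers of other cells were set beside these levels, because in tissue RNA fewer cells of a type and less RNA per cell cannot be told apart. Ptprc, the pan-leukocyte gene, was at 0.01 FPKM or less in each library. The share of leukocytes is not read from this gene, since the hepatocyte genes Ttr and Cyp2e1 were also near 0. The macrophage and Kupffer cell list had 3 of 5 genes measured and a summed level of 24.16 to 36.63 FPKM, nearly all of it Cd68. Cd68 was high in CLA alone, with 23.43 FPKM for Vehicle, 35.64 for CLA, 24.87 for GW6471 and 24.37 for CLA+GW6471, while Emr1 was at 0.09 or less and Csf1r at 0.91 or less. The T cell, B cell, neutrophil and dendritic cell lists each summed to 0.15 FPKM or less, and 0 of 3 mast cell markers were measured. Endothelial markers, all 4 measured, summed to 0.51 to 0.94 FPKM, and 3 of 4 stellate cell markers to 0.79 to 1.2 FPKM. The 4 cholangiocyte markers summed to 85.58 FPKM for Vehicle, 66.87 for CLA, 75.14 for GW6471 and 84.47 for CLA+GW6471, with low and high libraries as for Il1rn. Sox9 made up most of the sum, at 54.74 FPKM for Vehicle, 34.72 for CLA, 48.67 for GW6471 and 57.05 for CLA+GW6471, and the other markers did not have these low and high libraries. Epcam was lowest in Vehicle (7.09) and highest in CLA (8.95), Krt7 had 23.47 FPKM for Vehicle, 23.14 for CLA, 18.43 for GW6471 and 18.84 for CLA+GW6471, and Krt19 stayed at 0.28 or less. The 4 markers of stratified epithelium summed to 2.84 to 4.4 FPKM, mostly Krt5. Alb had 679.53, 1321.55, 1067.32 and 620.17 FPKM in Vehicle, CLA, GW6471 and CLA+GW6471, the order of Il33. The part of Sox9-, Cd68- or Alb-expressing cells in the levels of Il1rn, Il23a and Il33 was not tested.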

How the data were processed

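Liver RNA of 4 conditions was measured by RNA-seq, 1 library each, and samples were grouped by their treatment label. Per the methods and the submitters' processing notes, the authors mapped reads to mm9 with BWA and Bowtie and quantified genes with Cufflinks (versions not given in the sources used here). They deposited FPKM with 2 decimals for 15500 genes, a unit named in the study's supplement and not in the table. The filter on listed genes is not given, and a listed 0 can be a failed estimate. FPKM is relative to each library's own total, so a large change in abundant transcripts moves all other values. For genes with several starts, such as Il1rn, FPKM pools the transcripts. Reads shared between overlapping genes cannot be separated.

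Ratios are of FPKM as deposited, and log2 ratios and counts used FPKM + 0.1. Depth was the step that best divided FPKM times length, between 0.02 and 0.5, in 501 single-transcript genes under 1000 nt, searched from 10000000 to 30000000 reads. It does not tell single reads from pairs. Reads were then estimated with the longest coding transcript of GENCODE vM1 (mm9), and the 95% intervals and the 3-read floor cover counting error only. No count model or test was used. Work was done in Python 3.11.15 with scipy 1.17.1, numpy 2.4.6, matplotlib 3.10.9 and pandas 2.3.3, and the steps were tested on simulated data.

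The members and gene lists were chosen with earlier results of these data known. One gene of the IL-23 and IL-12 list is not reported here and was left out of it. Named were all members, the 3 genes of widest range in each list (mean FPKM of at least 1), cell markers, and the 3 nearest patterns. Other genes given with values were chosen after their values were seen, as was the comparison of neighbouring genes. Alternatives were pseudocounts of 0.01 and 1, 2 scalings, level limits of 5 or none and a limit of 1.5-fold. The shortest coding transcript for the reads was added after seeing the data.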

Additional observations from a re-analysis of the deposited data

Results flagged for a closer look

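For 8 of 26 named genes averaging 1 FPKM or more, the log2 ratio of CLA to Vehicle and that of CLA+GW6471 to GW6471 were opposite in sign and both at least 1.5-fold. Of all 10355 genes, 457, or 4.41%, met the same limits. The named genes were in part picked for a wide range, so nothing is read from their count. The difference between the ratios was not tested, because each ratio rests on 1 pair of libraries. The members among them were Il1rn (-2.36 without and 1.79 with GW6471), Il23a (-1.40 and 1.03) and Il33 (1.33 and -0.99). The pathway genes were Il18bp (-1.23 and 0.81), Ccl2 (-1.01 and 0.80), Ccl20 (1.67 and -1.76) and Casp1 (0.66 and -0.83). Alb, a hepatocyte gene, had 0.96 and -0.78.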

How the results depend on the processing

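No paired analysis was possible because each condition has 1 library, so the shared replicate number 1 gives no pairs within a comparison. All 96 log2 ratios of the 6 members averaging 1 FPKM or more moved by less than their counting interval under another pseudocount or scaling. Of these, 95 kept their sign, and the exception was Il1r1 in CLA+GW6471 against GW6471, at -0.045 with a common FPKM sum. Of 56 counts of members past 2-fold, 49 stayed within 1.5 times the main count. With a 1.5-fold limit, GW6471 against Vehicle had 1 member higher and 2 lower (3.28% and 2.10% of all genes), CLA+GW6471 against CLA had 2 lower (9.16%), CLA+GW6471 against GW6471 had 1 lower (3.88%), and CLA against Vehicle had 3 lower (4.95%). With a common FPKM sum, CLA+GW6471 against GW6471 had 1 higher and 1 lower (0.261% and 0.976% of all genes), and with a pseudocount of 1 it had 1 higher (0.126%). The members added at 1.5-fold were Il33 and Il23a in GW6471 against Vehicle, Il18 in CLA+GW6471 against CLA, Il33 in CLA+GW6471 against GW6471 and Il1rap in CLA against Vehicle. With the shortest coding transcript, 23 of 24 counting intervals kept their side of 0, and the exception was Il1rap in CLA+GW6471 against CLA, with a nearest bound of -0.10. The scalings moved the median log2 ratio of all genes to between -0.061 and 0.038. For Il1a and Il1rl1, at 3 estimated reads or fewer, depth allows no comparison.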
